A study of Mus musculus with 5 samples.

Results

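The genes of ribosome biogenesis and of RNA polymerase I were examined in 2 progenitor populations of wild-type mouse marrow (strain C57BL/6). Members were all probe sets whose annotation gives exactly 1 gene symbol that begins with Nop, Nol, Utp, Rrp, Rrs or Polr1, or that belongs to a short list of nucleolar genes (Ncl, Npm1, Fbl, Gnl3, Dkc1, Bop1, Pes1, Ppan, Gar1, Heatr1, Wdr12, Wdr43 and Wdr74 among them). Mrto4, also in that list, was not analysed here. The rule found 125 of 45037 probe sets, covering 57 of 18193 genes. Probe sets at log2 5 or above on 2 or more arrays were tested, and log2 5 also served as the detection level. This left 94 member probe sets of 53 genes. The 4 genes without a tested probe set were Nol3, Nol4, Nol4l and Nol6. Nol3 and Nol4 reached no more than 2.36 on any array, and Nol4l reached 5.09 on CMP 1 alone. These 3 match the rule by their letters and are not known as ribosome assembly factors. Nol6, a protein of the small subunit processome, reached no more than 4.21.

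The first population was the common dendritic cell progenitor (CDP, 3 arrays), sorted as lineage-negative, Sca-1-negative, CD34-positive, Flk2-positive cells with intermediate c-Kit that carry CD115 and lack CD16 and CD32. It was compared with the common myeloid progenitor (CMP, 2 arrays), which had high c-Kit, lacked CD11c and CD115, and otherwise shared the gate. Both were wild type and untreated as far as the labels say, and no age is stated. RNA from 10000 to 30000 cells that had been sorted, then sorted again, passed through 2 cycles of amplification before hybridization to Affymetrix Mouse Genome 430 2.0 arrays. No label names the animals behind an array. A p-value here therefore reflects only how far these 5 samples scatter, and that scatter may be technical. In such bulk RNA, fewer cells that express a gene and less RNA per cell cannot be told apart.

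Ribosomes are assembled in the nucleolus. RNA polymerase I transcribes the long precursor of the ribosomal RNAs, small nucleolar ribonucleoproteins (snoRNPs) guide its chemical modification, and large sets of assembly factors cut and fold it into the 40S and 60S subunits. Proliferating progenitors make many ribosomes, and transcription factors of the Myc family are known to raise the expression of many of these genes.

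Most gate genes and markers went with the labels. Kit was at 7.75, 7.18 and 7.70 (log2) on CDP 1, 2 and 3, against 10.04 and 10.20 on CMP 1 and 2. Irf8, Id2 and Itgax were higher in CDP (adjusted p = 0.0318, 0.0155 and 0.0155). Csf1r, which encodes CD115, was also detected in CMP, which the gate depletes of that protein (13.16, 12.94 and 12.95 in CDP, against 11.75 and 11.03 in CMP, adjusted p = 0.0966). The arrays differed in 5′ signal, a sign of RNA length, within each population. The beta-actin control read at the 3′ end exceeded the one at the 5′ end by 8.05, 2.12 and 4.48 log2 units on CDP 1, 2 and 3, against 7.35 and 1.81 on CMP 1 and 2. CDP 1 and CMP 1 had a 5′ actin signal below log2 8 and are called the weak-5′ arrays here. The same gap for the Gapdh control was largest on CDP 3, which is not a weak-5′ array by actin. The split therefore rests on the actin control alone, and Gapdh does not bear it out for CDP 3. The split crosses the populations, so values are also given within each kind of array. All 7 neutrophil markers with a probe set, such as S100a8 and Ngp, were detected on CDP 2 and none on the other 4 arrays, with summed log2 levels of 18.07 to 72.49 in CDP and 19.55 to 21.11 in CMP. Of 4 B cell markers, 2 were detected on each CDP array and 1 on each CMP array (Cd79b in both, Vpreb1 in CDP only), while Cd79a lay at the floor. Alas2, 1 of 4 erythroid markers, was likewise detected on CDP 2 alone, and no T or NK cell marker was detected anywhere. The median difference over the 8449 tested genes was 0.17, and over the 16552 tested probe sets it was 0.12, and quantile normalization brought the probe set median to 0.0026. Member medians are therefore also given relative to all genes.

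Promoter sequences are shown for the snoRNP genes Nop58, Gar1, Dkc1 and Nop56 and for nucleolin (Ncl), to show what they carry just before their start sites. The snoRNP genes had the most negative median of the groups, and a probe set of Ncl had the most negative difference. The 5 were chosen among those with a match, after the matches were seen, and the window of Nop10 held none. No match was counted for the snoRNP gene Fbl, whose difference was -0.13, and it is not shown either. Each run ends at the base before the first annotated start of the gene (RefSeq, GRCm38.p6) and reads 5′ to 3′ on the strand of the gene. Capitals mark matches to any of 7 motifs, sought on both strands.
Nop58, chr1:59684756-59684960, plus strand: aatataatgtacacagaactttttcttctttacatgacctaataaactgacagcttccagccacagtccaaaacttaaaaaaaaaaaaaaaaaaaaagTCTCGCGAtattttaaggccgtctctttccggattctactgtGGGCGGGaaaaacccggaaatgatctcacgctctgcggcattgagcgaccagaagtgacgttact
Gar1, chr3:129831408-129831646, minus strand: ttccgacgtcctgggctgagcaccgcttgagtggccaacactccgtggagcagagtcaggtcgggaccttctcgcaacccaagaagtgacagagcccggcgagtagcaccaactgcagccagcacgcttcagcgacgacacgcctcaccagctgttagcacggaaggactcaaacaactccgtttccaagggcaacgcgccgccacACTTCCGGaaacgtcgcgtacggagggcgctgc
Dkc1, chrX:75095604-75095853, plus strand: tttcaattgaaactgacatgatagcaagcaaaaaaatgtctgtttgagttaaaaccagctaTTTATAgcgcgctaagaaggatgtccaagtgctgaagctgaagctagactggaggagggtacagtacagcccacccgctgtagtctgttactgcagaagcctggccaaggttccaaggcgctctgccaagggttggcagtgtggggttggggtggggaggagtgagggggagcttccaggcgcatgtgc
Nop56, chr2:130274162-130274366, plus strand: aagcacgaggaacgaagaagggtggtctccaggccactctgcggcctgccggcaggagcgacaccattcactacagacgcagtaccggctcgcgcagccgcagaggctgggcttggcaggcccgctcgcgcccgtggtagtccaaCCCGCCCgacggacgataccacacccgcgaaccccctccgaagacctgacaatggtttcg
Ncl, chr1:86359456-86359705, minus strand: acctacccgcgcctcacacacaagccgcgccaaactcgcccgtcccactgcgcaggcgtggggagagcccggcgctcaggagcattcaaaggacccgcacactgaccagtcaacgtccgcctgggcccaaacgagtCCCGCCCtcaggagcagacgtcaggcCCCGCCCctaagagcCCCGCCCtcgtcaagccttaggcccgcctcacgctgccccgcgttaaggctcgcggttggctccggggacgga
The motifs were the E-box CACGTG bound by Myc and related factors, the ETS site CCGGAAGT, the motif TCGCGAGA, the GC box GGGCGGG, the TATA box TATAAA, the NRF1 site and the YY1 site AAGATGGCG. None of the matches shown overlaps another.

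Of the 57 genes, 45 had a promoter in the RefSeq table, and the 250 bases before the starts listed there were set beside those of 27025 genes. A gene was counted if any of its promoters matched (32851 promoters in all). The listed starts of Gar1, Nop56 and Nop58 lie past the first annotated start used above, so their printed runs were cut to 239, 205 and 205 bases. Their counted windows thus hold bases after that first start. The E-box was present in 6 of the 45 (13.3%) and in 6.86% of all genes. Its holders were Nol11, Nop2, Rrp7a, Utp14b, Utp18 and Utp25, and none of the 5 promoters shown has it. The ETS site was present in 7 (15.6%, against 3.23% of all genes), as in Gar1. The motif TCGCGAGA occurred in 3 (6.67%, against 0.977%), namely Nol9, Nop14 and Nop58. The GC box occurred in 19 (42.2%, against 25.7%), including 3 copies before Ncl, and the TATA box in 6 (13.3%, against 14.3%), including Dkc1. The NRF1 and YY1 sites were in 0 of the 45, against 0.877% and 0.71% of all genes. In all 11 strings were counted, and the 7 were kept after their counts were seen. The other 4 were CACGCG in 7 genes (15.6%, against 8.65%), CCGGAAG, the ETS site without its last base, in 12 (26.7%, against 7.83%), ATTGGC in 2 (4.44%, against 15.3%) and CTTTCC in 11 (24.4%, against 25.4%). A match describes the letters of these windows and is not evidence of binding.

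Most of the genes had a lower level in CDP than in CMP, mostly by under 1 log2 unit, and no member passed the threshold. At 1 probe set per gene, the one with the highest mean, 44 of 53 genes (83.0%) had a difference below 0, against 39.4% of all tested genes. The median difference was -0.52, or -0.69 relative to all tested genes, and single genes ran from -1.35 to 0.51. Of the 94 probe sets, 0 passed an adjusted p under 0.05 in limma, where 1.73% of all tested probe sets did (0.423% lower and 1.31% higher in CDP). Of the 53 genes 0 passed too, where 2.14% of all did (0.473% lower and 1.67% higher). The smallest adjusted p was 0.0615. At an unadjusted p under 0.05, 20 probe sets were lower in CDP (21.3%, against 4.89% of all) and 1 was higher (1.06%, against 11.1% of all). By gene these were 8 (15.1%, against 4.52%) and 0 (against 12.6%). Every CDP array lay below every CMP array for 31 of the 94 probe sets (33.0%, against 11% of all) and above for 2 (2.13%, against 21.2% of all), of Nol7 and Utp18. A probe set of Utp6 entered the test through CMP alone, where it is high, and 1 of Utp18 through CDP alone, so their differences follow in part from the filter. Without such probe sets (4.6% of all tested, a count chosen after seeing the data), 19 of 92 were lower at an unadjusted p under 0.05 (20.7%, against 4.45% of all) and 0 higher (against 9.12%), and 30 (32.6%, against 10.8%) and 1 (1.09%, against 19%) had no overlap. By gene, 16 of 53 were lower without overlap (30.2%, against 10.8% of all tested genes) and 0 of 53 higher (against 23.7%). Without genes detected in 1 population alone, the shares of all tested genes were 10.5% and 22%, and the member counts were the same.

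**Figure D1:**
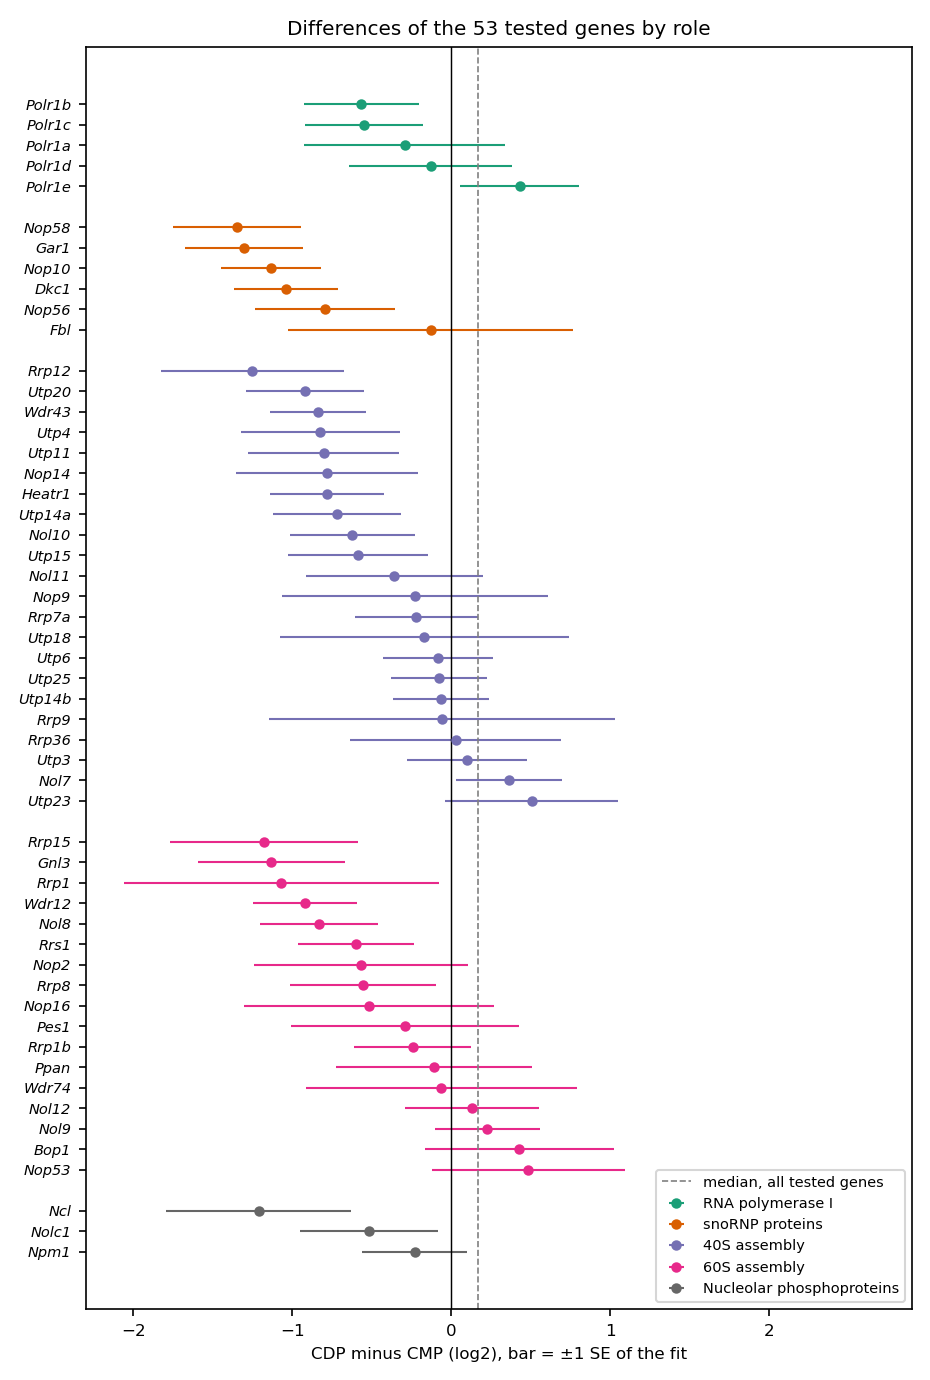
Difference of CDP minus CMP (log2, horizontal axis) for the 53 tested genes, grouped by role, with bars of 1 standard error of the fit. The dashed line is the median of all tested genes at 0.17, and 44 of the 53 points lie below 0.

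With the kind of array (weak-5′ or not) as a block in the model, 13 member probe sets passed as lower in CDP (13.8%, where 2.5% of all tested probe sets were lower) and 0 were higher (where 6.19% of all were). These 13 belong to Ncl (2 probe sets), Utp6, Nop58, Wdr43, Nolc1, Dkc1, Nop56, Nol9, Gar1, Nop10, Polr1a and Wdr12, with adjusted p from 0.0187 to 0.0480. Without the probe set of Utp6, detected in CMP alone, they were 12 of 92 (13%, against 2.13% of all tested probe sets detected in both populations). By gene, at the brightest probe set, Nop58, Gar1, Nop10 and Ncl passed as lower (7.55%, against 2.66% of all genes) and 0 as higher (against 7.1%). Each of the 13 had a negative difference between the weak-5′ arrays and between the rest. The estimate with the block is built from these same differences, so their shared sign is no separate support. The block was chosen with earlier results of these data known. It follows the actin split, so the calls made with it depend on a grouping that the Gapdh control does not bear out for CDP 3.

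The snoRNP proteins had the lowest group median, -1.09 over 6 of 6 tested genes, and all 6 differences were negative. Box C/D particles methylate ribosomal RNA, and H/ACA particles convert uridine to pseudouridine. Nop58, a core protein of box C/D particles, was at 9.53, 10.25 and 9.84 (log2) on CDP 1, 2 and 3, against 10.84 and 11.61 on CMP 1 and 2. Its groups did not overlap, and the difference was -1.35 ± 0.40 (SE, adjusted p = 0.185, and 0.0299 with the block). Nop56, its partner in the particle, was at 10.33, 10.81 and 11.48 in CDP, against 11.40 and 11.93 in CMP. CDP 3 lay above CMP 1, so the groups overlapped, at -0.79 ± 0.44 (adjusted p = 0.453). Fbl, the methyltransferase of box C/D particles, was at 10.63, 12.69 and 12.60 in CDP, against 10.97 and 13.24 in CMP. The 2 weak-5′ arrays were the lowest for Fbl, and its difference was -0.13 ± 0.90 (adjusted p = 0.968).

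Of the H/ACA proteins, Dkc1 is the pseudouridine synthase, and Gar1 and Nop10 are core subunits that it binds. Gar1 was at 10.39, 10.84 and 11.27 on CDP 1, 2 and 3, against 12.15 and 12.13 on CMP 1 and 2. Nop10 was at 10.86, 11.05 and 10.84 in CDP, against 11.86 and 12.25 in CMP. Dkc1 was at 11.33, 11.63 and 11.78 in CDP, against 12.46 and 12.78 in CMP. For all 3 genes every CDP array lay below both CMP arrays, an order that 10.8% of all tested genes show. The differences were -1.31 ± 0.37 for Gar1, -1.13 ± 0.31 for Nop10 and -1.04 ± 0.33 for Dkc1 (SE), or 2.47-fold, 2.19-fold and 2.06-fold lower. Their adjusted p-values were 0.173, 0.164 and 0.204, and 0.0470, 0.0473 and 0.0501 with the block. The dimmer probe sets of Dkc1 differed by -1.54 and -1.87, and that of Nop10 by -1.02. All 3 tested probe sets of Dkc1 and both of Nop10 had no overlap between the groups (against 11% of all tested probe sets in this direction). Probe sets of the same gene on the same arrays are not separate observations.

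**Figure D2:**
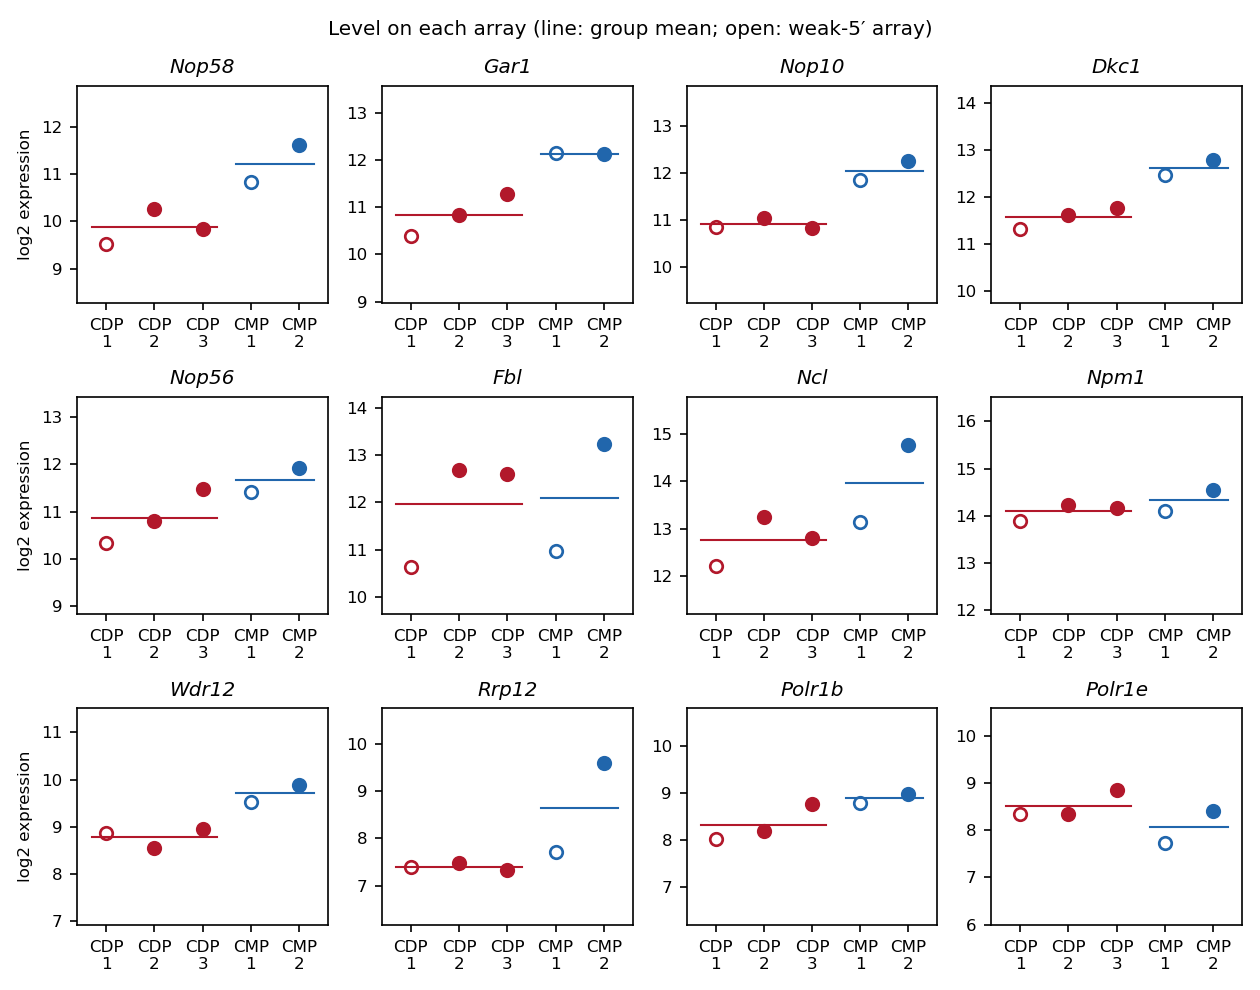
Level (log2, vertical axis, each panel spanning the same range) of 12 genes on the 3 CDP arrays and the 2 CMP arrays, with lines at the group means and open symbols for the weak-5′ arrays. Nop58, Gar1, Nop10, Dkc1, Wdr12, Rrp12 and Polr1b show every CDP array below both CMP arrays, an order that 10.8% of all tested genes show. Fbl separates the open from the filled symbols instead. The 12 genes were picked for display.

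Ncl and Npm1, abundant nucleolar proteins that bind pre-ribosomal RNA and histones, and Nolc1, a chaperone of snoRNPs, all had negative differences with overlapping groups. On its brightest probe set Ncl was at 12.20, 13.24 and 12.79 in CDP, against 13.14 and 14.77 in CMP, a difference of -1.21 ± 0.58 (adjusted p = 0.386, and 0.0480 with the block). CDP 2 lay just above CMP 1, and the difference was -0.40 without CMP 2 and -2.03 without CMP 1. The 5 tested probe sets of Ncl gave differences from -2.53 to -0.37, and 3 of them had no overlap (11% of all tested probe sets had none in this direction). The probe set with the most negative difference was at 10.60, 10.15 and 9.29 in CDP, against 12.43 and 12.66 in CMP (-2.53 ± 0.46, adjusted p = 0.0615, and 0.0187 with the block). It had the smallest p of all members. Npm1 was at 13.88, 14.24 and 14.16 in CDP, against 14.10 and 14.55 in CMP (-0.23 ± 0.33, adjusted p = 0.801). Nolc1 was at 9.27, 10.44 and 10.16 in CDP, against 10.35 and 10.59 in CMP (-0.52 ± 0.44, adjusted p = 0.637). A dimmer probe set of Nolc1 had no overlap and differed by -1.32 ± 0.36 (adjusted p = 0.164, and 0.0407 with the block). The dimmest one of Nolc1 overlapped, at -0.48 ± 0.46.

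Of the 5 tested RNA polymerase I subunits with a Polr1 symbol, 4 had a negative difference, with a group median of -0.29. Polr1a and Polr1b together form the catalytic centre. Polr1b was at 8.01, 8.18 and 8.77 in CDP, against 8.79 and 8.98 in CMP, with CDP 3 just below CMP 1 (-0.57 ± 0.36, adjusted p = 0.517). Polr1a was at 7.11, 8.74 and 8.53 in CDP, against 7.82 and 9.03 in CMP, and the groups overlapped (-0.29 ± 0.63, adjusted p = 0.879). A dimmer probe set of Polr1a had no overlap, at 5.84, 5.88 and 5.61 in CDP, against 7.09 and 6.84 in CMP (-1.19 ± 0.31, adjusted p = 0.143, and 0.0473 with the block), and another had a difference of 0.35. Polr1c, a subunit shared with RNA polymerase III, was at 11.12, 11.38 and 11.41 in CDP, against 11.45 and 12.25 in CMP (-0.55 ± 0.37, adjusted p = 0.543). Its groups did not overlap, but CDP 3 and CMP 1 were nearly level. The dimmer probe set of Polr1c overlapped, at -0.58 ± 0.84. Polr1d, the other subunit shared with RNA polymerase III, differed by -0.13 ± 0.51, and its 4 probe sets ranged from -0.31 to 0.44. Polr1e, a subunit that acts in initiation, was the exception, at 8.33, 8.34 and 8.84 in CDP, against 7.74 and 8.42 in CMP (0.43 ± 0.37, adjusted p = 0.649).

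The small subunit processome, which folds and cuts the precursor of the 40S subunit, and the later 40S factors counted 22 tested genes, of which 18 had a negative difference (median -0.29). No gene passed, and 5 had no overlap between groups (22.7%), all lower in CDP, against 10.8% of all tested genes lower and 23.7% higher: Wdr43, Utp20, Heatr1, Rrp12 and Utp14a. Wdr43, the counterpart of yeast Utp5, was at 10.79, 10.49 and 10.67 in CDP, against 11.52 and 11.46 in CMP (-0.84 ± 0.30, adjusted p = 0.257). Utp20, a large scaffold protein of the processome, was at 10.09, 9.31 and 9.45 in CDP, against 10.68 and 10.40 in CMP (-0.92 ± 0.37, adjusted p = 0.303). For both, the 2 CMP arrays lay close together. A dimmer probe set of Wdr43 differed by -1.32 ± 0.32 (adjusted p = 0.121, and 0.0400 with the block). Heatr1, the mammalian counterpart of yeast Utp10, was at 9.39, 9.38 and 9.57 in CDP, against 9.84 and 10.61 in CMP (-0.78 ± 0.36, adjusted p = 0.366). The dimmer tested probe set of Heatr1 overlapped between the groups, at -0.25 ± 0.32. Rrp12, known in yeast from the export of pre-ribosomes, was at 7.39, 7.47 and 7.33 in CDP, against 7.70 and 9.60 in CMP (-1.25 ± 0.57, adjusted p = 0.366). The CDP arrays of Rrp12 agreed closely while CMP 1 lay near them, so its difference was -0.31 without CMP 2 and -2.20 without CMP 1.

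Utp14a differed by -0.72 ± 0.40. Of the other processome and 40S genes, Utp4, Utp11, Nop14, Nol10 and Utp15 had differences from -0.82 to -0.59 with overlapping groups. Nol11, Nop9, Rrp7a, Utp18, Utp6, Utp25, Utp14b and Rrp9 lay between -0.36 and -0.06. Rrp9, a protein of the U3 snoRNP, was below log2 5 on both weak-5′ arrays. Rrp36 and Utp3 were at 0.03 and 0.10. Nol7 was at 12.11, 11.91 and 12.01 in CDP, against 11.94 and 11.35 in CMP (0.37 ± 0.33, adjusted p = 0.668). Utp23 was at 7.35, 8.18 and 8.58 in CDP, against 6.91 and 8.15 in CMP (0.51 ± 0.54, adjusted p = 0.723), and it was the largest positive difference of the 53 genes.

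The 60S assembly factors counted 17 tested genes, of which 13 had a negative difference (median -0.52) and 5 had no overlap (29.4%, against 10.8% of all tested genes), all lower in CDP, with 0 higher (against 23.7%). Pes1, Bop1 and Wdr12 form the PeBoW complex, which is needed to process the large subunit RNA, and they differed among themselves. Wdr12 was at 8.86, 8.55 and 8.96 in CDP, against 9.52 and 9.89 in CMP (-0.92 ± 0.33, adjusted p = 0.252). Its second probe set also had no overlap (-1.06 ± 0.32, adjusted p = 0.186, and 0.0479 with the block). Pes1 was at 8.21, 9.88 and 9.32 in CDP, against 8.50 and 10.36 in CMP (-0.29 ± 0.72, adjusted p = 0.897). Bop1 was at 7.32, 8.32 and 8.80 in CDP, against 7.07 and 8.37 in CMP (0.43 ± 0.60, adjusted p = 0.797). Pes1 and Bop1 were each lowest on the 2 weak-5′ arrays, while Wdr12 separated the populations instead. Whether the 3 genes differ from each other in their response was not tested.

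Gnl3, or nucleostemin, a nucleolar GTPase of stem and tumour cells, was at 11.96, 10.64 and 11.09 in CDP, against 12.22 and 12.50 in CMP (-1.13 ± 0.46, adjusted p = 0.307). Nol8 was at 7.90, 7.36 and 7.49 in CDP, against 8.76 and 8.07 in CMP (-0.83 ± 0.37, adjusted p = 0.354). Rrp15, known in yeast from 60S maturation, was at 9.59, 9.44 and 9.78 in CDP, against 9.81 and 11.76 in CMP (-1.18 ± 0.59, adjusted p = 0.408). On these probe sets the groups of the 3 genes did not overlap. For Rrp15, CMP 1 lay just above CDP 3, and the difference was -0.20 without CMP 2 and -2.15 without CMP 1. The dimmer probe sets of Nol8 differed by -0.40, without overlap, and by -0.30, with overlap. Rrs1 was the fifth 60S gene without overlap, at -0.60 ± 0.36, while its dimmer probe set overlapped, at -0.94 ± 0.50. Rrp1, Nop2, Rrp8, Nop16, Rrp1b, Ppan and Wdr74 overlapped, at -1.07, -0.57, -0.56, -0.52, -0.24, -0.11 and -0.06. Nol12 was at 0.13. Nop53, which brings the RNA exosome to the pre-60S particle, was at 12.02, 13.46 and 12.92 in CDP, against 11.60 and 13.02 in CMP (0.49 ± 0.61, adjusted p = 0.771). Nol9, a polynucleotide kinase of rRNA processing, was at 7.72, 7.78 and 8.26 in CDP, against 7.61 and 7.77 in CMP on its brightest probe set (0.23 ± 0.33, adjusted p = 0.807).

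Probe sets of the same gene did not always move together. Of 28 genes with several tested probe sets, 5 had probe sets of opposite sign: Nol9, Nol11, Polr1a, Polr1d and Utp18. The widest range was that of Nol9, whose dimmer probe set was at 5.97, 5.85 and 4.49 in CDP, against 7.97 and 7.11 in CMP (-2.10 ± 0.57, adjusted p = 0.156), without overlap. The most negative probe set of Utp6 was at 3.68, 4.50 and 4.48 in CDP, all below the detection level, against 5.03 and 7.69 in CMP. Taking CDP at that level, its difference is -1.36 or lower, while the brightest probe set of Utp6 differed by -0.08. The only probe set with a positive difference at an unadjusted p under 0.05 was the dim one of Utp18 that entered the test through CDP alone, at 4.85, 5.19 and 5.65 in CDP, against 4.46 and 4.18 in CMP (unadjusted p = 0.0460, adjusted p = 0.302 by limma). The brighter probe set of Utp18 differed by -0.17. Probe sets of a gene may sample different transcript ends, which was not tested.

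**Figure D3:**
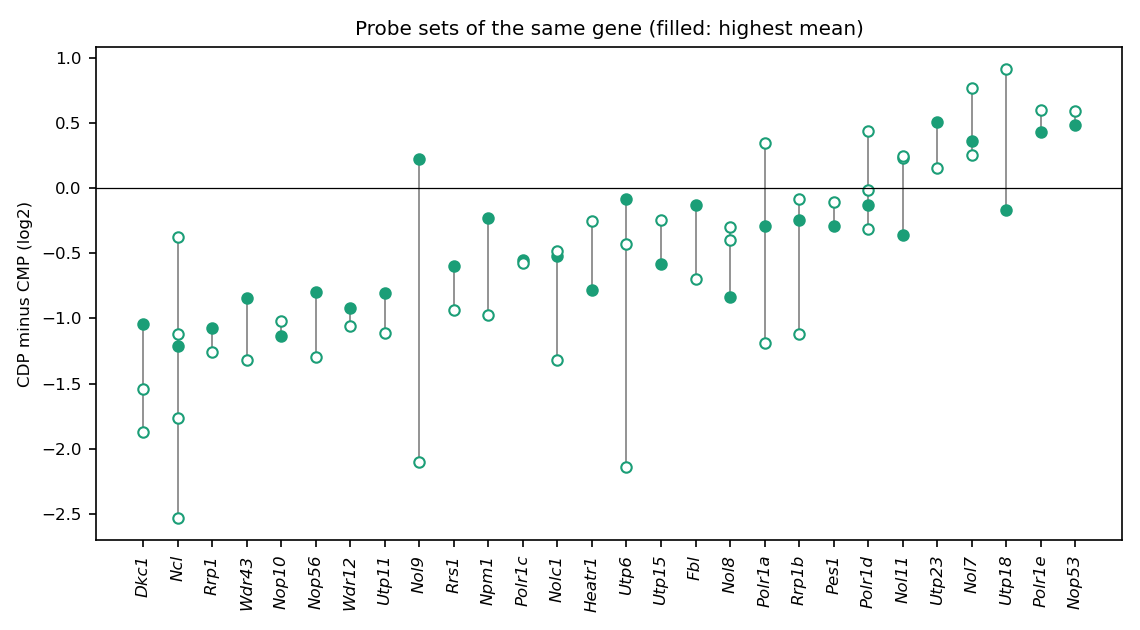
Difference of CDP minus CMP (log2, vertical axis) of every tested probe set of the 28 genes with more than 1, joined by a line per gene, with the brightest probe set filled. The 5 genes whose line crosses 0 are Nol9, Polr1a, Polr1d, Nol11 and Utp18.

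Each array pair was also taken apart. For the weak-5′ pair, CDP 1 minus CMP 1, 35 of 53 genes (66.0%) were below 0, against 38.4% of all tested genes, with a median of -0.31 (0.17 for all genes). For CDP 2 minus CMP 2, 47 genes (88.7%) were below 0, against 44.4% of all, with a median of -0.76. For CDP 3 minus CMP 2, 43 genes (81.1%) were below 0, against 41.9% of all, with a median of -0.73. In these pairs of like arrays the members lay below all genes each time. The pairs of unlike arrays spread more widely. CDP 1 minus CMP 2 had a median of -1.14, against 0.06 for all genes, with 44 genes below 0 (83.0%, against 47.2% of all). CDP 2 minus CMP 1 and CDP 3 minus CMP 1 had medians of -0.12 and -0.01, against 0.25 and 0.35 for all genes. In these, 29 and 27 genes were below 0 (54.7% and 50.9%, against 39.9% and 36.3% of all). The 6 pairs share arrays and are not replicates. Both within the weak-5′ arrays and within the rest, 33 genes (62.3%, against 25.0% of all) were below 0 and 7 were above. All 6 snoRNP genes and all 3 nucleolar phosphoprotein genes were among the 33, as were 3 polymerase subunits, 11 processome and 40S genes and 10 of the 60S genes.

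**Figure D4:**
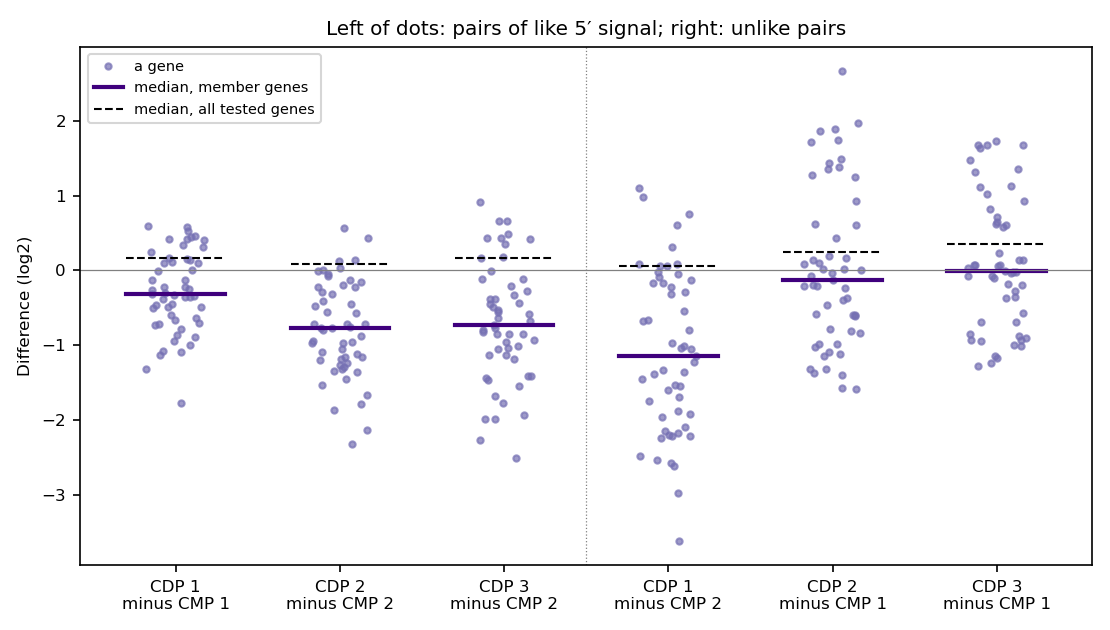
Difference of each CDP array minus each CMP array (log2, vertical axis) for the 53 genes, with the median of the genes (solid line) and of all tested genes (dashed line). The 3 pairs at left join arrays of like 5′ signal by the actin split and have medians of -0.31, -0.76 and -0.73. The pairs at right join unlike arrays.

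The 5′ signal of the actin control moved with many of these genes. On 21 of 53 genes (39.6%, against 25.5% of all tested genes) both weak-5′ arrays lay below all 3 others, Fbl, Npm1, Pes1, Bop1, Nop53 and Polr1a among them, and on 4 genes (7.55%, against 15.9%) above. The median of CMP 1 minus CMP 2 was -0.56 over the members and -0.08 over all genes. CMP 2 was the array on which the members stood highest. Their median level exceeded that of all tested genes by 0.51, 0.71 and 0.75 log2 units on CDP 1, 2 and 3, against 0.98 and 1.66 on CMP 1 and 2. Without CMP 2 the median difference was -0.16, with 31 of 53 genes below 0 (58.5%, against 37.4% of all), and without CMP 1 it was -0.90, with 46 below 0 (86.8%, against 44.6%). Without CDP 2, the array with neutrophil transcripts, it was -0.59 with 42 genes below 0 (79.2%, against 39.3%). Without CDP 1, 35 genes were below 0 (median -0.41), and without CDP 3, 46 were (median -0.51).

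The other genes of the pathway were described in the same way, without a test against the members. Of 85 tested assembly factors outside the rule, 67 had a difference below 0 (78.8%, against 39.4% of all genes), and the median was -0.31. Of these, 0 passed in either direction, where 2.14% of all genes did. At an unadjusted p under 0.05, 6 were lower in CDP (7.06%, against 4.52% of all genes) and 0 higher (against 12.6%). With the block 2 were called lower (2.35%, against 2.66% of all genes) and 0 higher (against 7.1%). Without overlap between groups, 21 of the 85 were lower (24.7%, against 10.8% of all genes) and 1 higher (1.18%, against 23.7%). The 3 with the smallest p were Ddx21, Ebna1bp2 and Mphosph10. Ddx21, a nucleolar RNA helicase, was at 11.77, 11.43 and 10.99 in CDP, against 12.81 and 12.92 in CMP (-1.47 ± 0.36, adjusted p = 0.124, and 0.0411 with the block). Ebna1bp2 and Mphosph10 differed by -1.26 ± 0.34 and -1.33 ± 0.38, both without overlap between groups. Of 11 further polymerase I factors, among them the subunits Twistnb, Cd3eap and Znrd1, 6 were below 0 (54.5%, against 39.4% of all genes) and 5 above. Of these 11, 0 passed (against 2.14% of all genes), and the median was -0.25. Ubtf, the factor that opens rDNA chromatin, was at 9.53, 9.01 and 9.11 in CDP, against 9.79 and 10.04 in CMP (-0.70 ± 0.33, adjusted p = 0.380). Taf1c and Taf1d, of the selectivity factor SL1, differed by 0.89 ± 0.49 and -0.61 ± 0.38.

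Ribosomal proteins and the polymerase subunits with a Polr2 or Polr3 symbol gave other counts. Of 42 tested cytosolic ribosomal protein genes, 20 had a difference below 0 (47.6%, median 0.01). Of 19 subunits with a Polr2 or Polr3 symbol, 7 did (36.8%, median 0.10), against 39.4% of all genes. This Polr2 and Polr3 list was taken by symbol and includes subunits shared with RNA polymerase I, Polr2f among them. In neither list did a gene pass without the block, where 2.14% of all genes did. With it 1 polymerase subunit gene, Polr2f, passed as lower (5.26%, against 2.66% of all genes), at 6.19, 8.48 and 8.26 in CDP, against 7.16 and 10.06 in CMP (adjusted p = 0.0401), and 0 ribosomal protein genes did. The smallest p-values without the block were those of Rpl37 (-0.81 ± 0.38), Rpl39 (-0.74 ± 0.36) and Rpl41 (-0.69 ± 0.41) and of Polr3b (0.73 ± 0.30), Polr3k (-0.72 ± 0.39) and Polr3g (-0.66 ± 0.37). These lists were not tested against the members. Myc itself was at 8.10, 7.94 and 8.69 in CDP, against 9.93 and 10.21 in CMP (-1.82 ± 0.37, 3.53-fold lower, adjusted p = 0.0810, and 0.0224 with the block). Mycl, its relative in dendritic cells, was at 8.26, 8.01 and 7.84 in CDP, against 2.60 and 3.84 in CMP (at least 3.04 log2 units higher, taking CMP at the detection level, adjusted p = 0.0155). Mnt, a repressor that competes with Myc, differed by -0.45 ± 0.44. The proliferation markers Mki67, Top2a and Cdk1 were all higher on every CDP array than on any CMP array, as were 23.7% of all tested genes. The differences of these markers were 0.97 ± 0.32, 1.18 ± 0.37 and 0.68 ± 0.36 (adjusted p = 0.223, 0.206 and 0.427), none past the threshold. Their part in the member differences was not tested.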

How the data were processed

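The authors deposited log2 expression values of 5 Affymetrix arrays, made with GCRMA per the submitters' processing notes. GCRMA models background from probe sequence, equalises the arrays by quantiles and combines the probes of each set. Its version is not given in the sources used here. Values ran from 2.26, a lowest value that the arrays share, to 16.59. Gene symbols came from the annotation of the array platform, and all 125 members had a RefSeq gene with the same symbol. Of 45037 probe sets (64 controls left out), 34945 had 1 symbol. The populations were compared by lmFit and eBayes of limma 3.58.1 under R 4.3.3, 2-sided, with Benjamini-Hochberg adjustment over all 16552 tested probe sets. The residual degrees of freedom were 3 and the prior 3.14, and the procedure was tested on simulated data. Titles gave the groups and replicate numbers; that of CDP 3 starts CM, the rest BM. The number of arrays limits the precision.

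The members, gene lists, rule for named genes and settings were chosen with earlier results of these data known. Levels on every array are given for 12 genes fixed by name, up to 3 genes of each role by smallest p, and the 6 largest and 6 smallest differences, at the probe set with the highest mean. Further probe sets and the motifs were singled out after their values were seen. Lists are described by counts and medians, without a test. The alternatives were another normalization, filter, variance prior or weighting, blocks, removal of probe sets marked as able to match several transcripts, gene means, and leaving out arrays.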

Additional observations from a re-analysis of the deposited data

How the results depend on the processing

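The 5 arrays limit what single members can show, and no member was called without a block. The median difference of the member genes stayed below 0 in all 18 planned settings, from -0.90 (without CMP 1) to -0.16 (without CMP 2). Member probe sets called higher in CDP stayed at 0 in every setting that counts probe sets. Those called lower numbered 0, except 13 with the weak-5′ block and 2 with the replicate block. The 13 were 13.8% of the 94 tested member probe sets, against 2.5% of all tested probe sets called lower. The 2 are also of 94, where the replicate block called 608 of all 16552 in either direction. Probe sets called over the whole table numbered 287, and 1438 with the weak-5′ block, 608 with the replicate block, 55 with no filter and 0 without both weak-5′ arrays. Leaving probe sets detected in 1 population alone out of the count, a setting chosen after seeing the data, gave 143, since fewer are counted, and left the member median at -0.52. Leaving out 1 array gave 0 (without CDP 2, CDP 3, CMP 1 or CMP 2) to 44 (without CDP 1). Fits that leave out arrays have fewer samples; the cause of the other shifts was not tested.

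The labels tie no replicate number to an animal or day, so the replicate block is no paired design. The deviations of CDP 1 and CMP 1 from their group means correlated at 0.606 and those of CDP 2 and CMP 2 at 0.579. With 2 CMP arrays, the deviation of 1 is the mirror image of the other. CDP 1 with CMP 2 thus gave -0.606 and CDP 2 with CMP 1 gave -0.579, so these correlations are not separate observations. The replicate numbers coincide with the split by 5′ signal for CDP 1 and CMP 1.

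Of 485 values of single named genes under the alternatives, 468 kept their direction and their side of the threshold, 4 passed it (Nop10, Gar1, Nop58 and Ncl, all with the weak-5′ block) and 13 changed sign, none of them a called value. Array weights gave 0.0803 for Polr1a, 0.0480 for Pes1 and 0.363 for Fbl. Leaving out 1 array gave -0.90 to 0.31 for Polr1a, -1.22 to 0.63 for Pes1, -1.26 to 1.00 for Fbl, -0.11 to 1.13 for Utp23, -0.23 to 1.20 for Nop53 and -0.22 to 1.08 for Bop1, lowest without CMP 1 and highest without CMP 2 each time. Leaving out 1 array moved the difference of 18 of the 27 named genes by over 1.5 times. The others that moved so, without a change of sign, were Heatr1 (-1.16 to -0.40), Ncl (-2.03 to -0.40), Nol7 (0.07 to 0.66), Nol8 (-1.18 to -0.49), Nol9 (0.06 to 0.33), Nolc1 (-0.76 to -0.17), Nop56 (-1.10 to -0.52), Npm1 (-0.45 to -0.01), Polr1c (-0.95 to -0.14), Polr1e (0.09 to 0.77), Rrp12 (-2.20 to -0.31) and Rrp15 (-2.15 to -0.20). Without CDP 1, Polr1a, Pes1 and Fbl were at 0.22, 0.17 and 0.54. The mean of its probe sets put Nol9 at -0.94. The cause was not tested, apart from the dimmer probe set of Nol9 that enters that mean.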
